A study of Oreochromis niloticus with 12 samples.

Results

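Secretory pathway genes, those whose products carry newly made hormones and other secreted proteins from the ribosome to the storage granule, were followed in the pituitary and the brain of male Nile tilapia (Oreochromis niloticus). They were chosen by gene name, where the row averaged 10 or more normalised reads, and 2 loci without a name of their own in the tables (scg2b, LOC100697209, and copb2, LOC100691498) were added. This gave 67 genes of the 27115 in the brain table and 25 of the 714 in the pituitary table, and all 25 were among the 67. The mature males, of the Lake Manzala strain, had lived 2 to a tank with females and were sampled after 14 days, as dominant, reproducing males or as subordinate, non-reproducing males. There were 3 libraries for each tissue and status, 12 in all. Whether same-group samples came from different animals or tanks is not stated, so the p-values below measure the spread between these samples, which may be technical.

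The 2 tables do not carry the same weight. The brain table was not limited to genes that differ, so members were tested there, although both loci added by hand are also in the pituitary table. Every row of the deposited pituitary table is significant at 0.05, unadjusted, in the comparison of the same groups that the authors deposited. A gene could thus be seen in the pituitary only if it reached that p, which alone does not establish a difference. Pituitary values are therefore given as a description, with no test, and the 42 members outside that table were not analysed in the pituitary. In the authors' deposited table the p-values of the 25 members ran from 0.00104 to 0.0468, the latter for srp9 as the member nearest to the limit. In the brain the lowest member that met the minimum mean was tram2, at 42.7 reads, and the row that the table itself names copb2, at 4.98, stayed out. Values are normalised read counts. A difference is the dominant mean less the subordinate mean of log2(value + 1), given with its SE (standard error), over n = 3 libraries a group.

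A secreted protein starts with a signal sequence that the signal recognition particle binds and brings to a receptor on the endoplasmic reticulum. There it passes through the Sec61 channel, loses its signal peptide, gains sugar chains and disulfide bonds, and leaves in vesicles with a COPII coat, while COPI vesicles bring escaped residents back. In endocrine cells and peptidergic neurons, granins help to build dense-core granules, in which prohormone convertases and carboxypeptidase E trim hormone and neuropeptide precursors.

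In the pituitary all 25 members were lower in dominant than in subordinate males, against 47.9% of the 714 rows of that table. The differences ran from -0.31 for tmed10 to -0.70 for scg2b, with a median of -0.41, or 19.3% to 38.3% fewer reads with a median of 24.8%. Over all 714 rows the median was 0.37, and over the 342 rows that were lower in dominant males it was -0.56. For 19 of the 25 members (76%) every dominant library lay below every subordinate one. The same held for 27.5% of the table and for 57.3% of its 342 rows that were lower in dominant males. The members were chosen with earlier results of these data known, and both loci added by hand are among these rows. Since the rows were also selected by the same contrast, the shared direction and these shares are read only as a description. In bulk tissue, fewer cells of a type and less of a transcript per cell cannot be told apart.

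**Figure D1:**
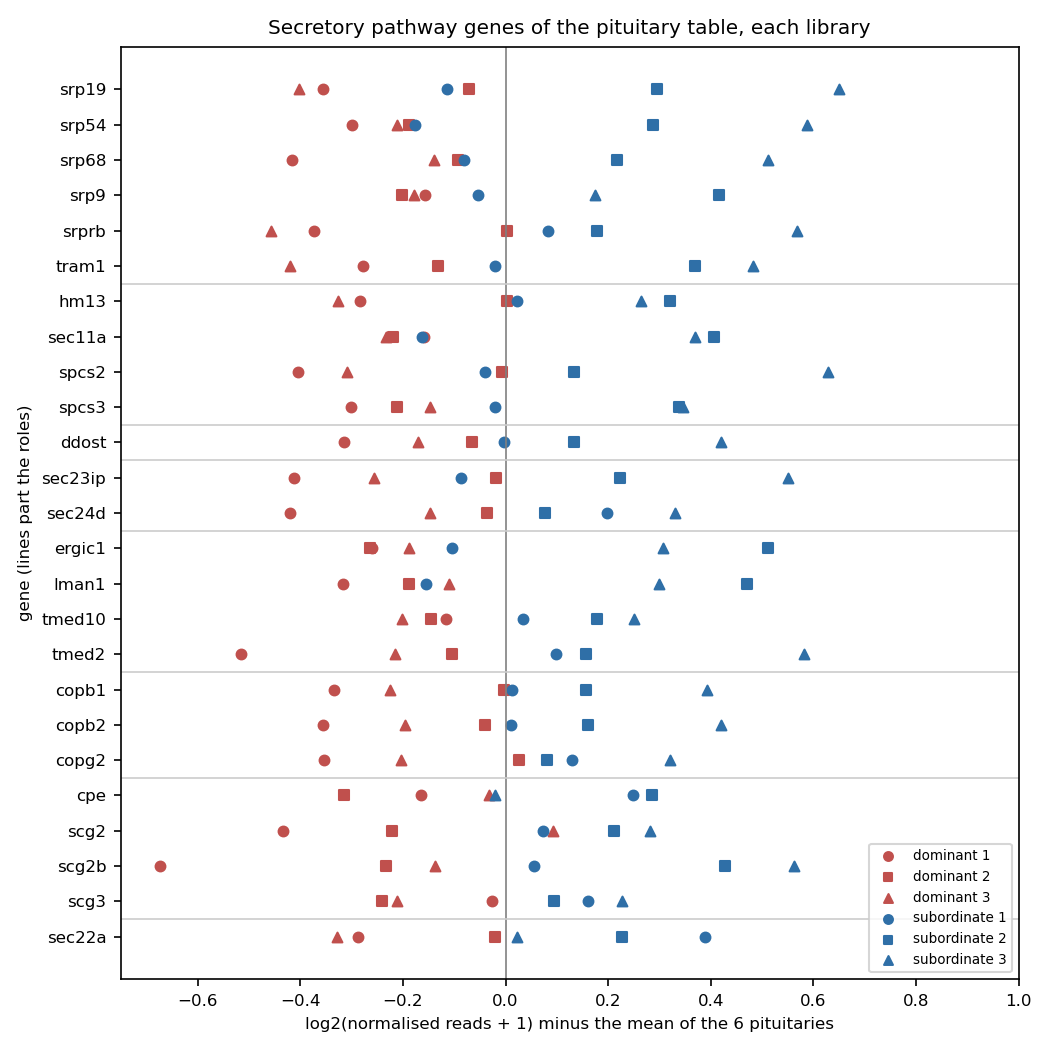
Each of the 25 secretory pathway genes of the pituitary table has a row, grouped by role, and each library a point, placed by its log2(normalised reads + 1) minus the mean of the 6 pituitaries. The dominant points lie left of the subordinate ones for 19 genes, and the point of subordinate pituitary 3 is the farthest right for 18.

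The first step of the pathway, targeting and translocation, had 6 members in the pituitary table. tram1, which encodes a membrane protein beside the Sec61 channel, stood at 1086, 1201 and 984 reads in dominant pituitaries 1, 2 and 3 and at 1298, 1701 and 1839.7 in the subordinate ones. Its groups did not overlap, and the difference was -0.55 ± 0.17 (SE). srprb, the membrane anchor of the signal recognition particle receptor, stood at 528, 686 and 499 reads against 725, 775 and 1016 (-0.55 ± 0.21), again with no overlap. The particle itself was represented by srp54, which binds the signal sequence, at 1698, 1834 and 1804 reads against 1849.7, 2549 and 3141 (-0.47 ± 0.22). Subordinate pituitary 1 lay next to the dominant samples for srp54, and the other two subordinate pituitaries lay well above them. The other particle subunits were srp19 (949 ± 122 against 1418 ± 369, mean ± SD), srp68 (936 ± 109.6 against 1275 ± 261) and srp9 (332 ± 5.25 against 430.2 ± 70.3). Of these 3, srp19 was the one whose groups overlapped.

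Removal of the signal peptide had 4 members. spcs3, a subunit of the signal peptidase complex, stood at 928, 988 and 1033 reads in the dominant pituitaries and 1128, 1446 and 1454 in the subordinate ones, with no overlap (-0.44 ± 0.13). hm13, the signal peptide peptidase that cuts up the released peptides, stood at 3369, 4113 and 3274 reads against 4169, 5125 and 4925 (-0.40 ± 0.14), where dominant pituitary 2 came close to subordinate pituitary 1. For sec11a, the catalytic subunit, the groups overlapped, because subordinate pituitary 1 (1525 reads) lay inside the dominant range of 1453 to 1531 while the others stood at 2265 and 2206. spcs2 overlapped as well (657 ± 96.9 against 928 ± 233). ddost, a subunit of the oligosaccharyltransferase that attaches N-linked sugars, stood at 2711 ± 233 against 3516 ± 538 reads with no overlap (-0.37 ± 0.14). None of the 4 protein disulfide isomerase members (pdia3, pdia4, pdia5 and pdia6) was among the pituitary rows.

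Transport between the endoplasmic reticulum and the Golgi had 9 members in the table. tmed2 and tmed10 encode p24 proteins, which help to sort cargo into COPI and COPII vesicles. tmed2 stood at 1185, 1575 and 1459.7 reads in the dominant pituitaries and at 1813, 1890.2 and 2535 in the subordinate ones (-0.56 ± 0.20). tmed10 stood at 4984, 4888 and 4698 reads against 5532, 6115 and 6427, the smallest difference of the 25 but also the one with the smallest SE (-0.31 ± 0.07). Neither gene had overlapping groups. ergic1, a protein of the compartment between both organelles, stood at 619.8 ± 18.7 against 875 ± 183 reads, and lman1, a lectin that ferries glycoproteins, at 1395 ± 99.4 against 1881 ± 400.1. The lman1 groups overlapped. Among coat genes, sec24d, the COPII subunit that picks cargo, stood at 1251, 1632 and 1509.9 reads against 1918, 1764 and 2105 (-0.40 ± 0.14), with no overlap. sec23ip, whose product binds the COPII subunit Sec23, did overlap (576 ± 80.2 against 799 ± 176). The COPI subunits copb1 (1168, 1471 and 1261 reads against 1487, 1643 and 1935), copb2 of LOC100691498 and copg2 differed by -0.38, -0.39 and -0.35. All 3 had groups that did not overlap.

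Granins and processing enzymes are the most specialised part of the pathway, and 4 of the 7 members were in the pituitary table. scg2b, a second locus for secretogranin 2, the precursor of secretoneurin, had the largest difference of the 25. It stood at 8674, 11775 and 12579 reads in dominant pituitaries 1, 2 and 3 and at 14371, 18614 and 20436 in the subordinate ones (-0.70 ± 0.22), and the groups did not overlap. scg2, the locus named as such, stood at 73320.1, 84990 and 105673 reads against 104178, 114663 and 120358 (-0.38 ± 0.16), where dominant pituitary 3 lay above subordinate pituitary 1. scg3, a granin that binds granule membrane and other granins, stood at 34691, 29890.5 and 30497 reads against 39479, 37737 and 41347 (-0.32 ± 0.08), with no overlap. cpe, carboxypeptidase E, stood at 22139.7, 19952 and 24275 reads against 29498, 30231 and 24464 (-0.34 ± 0.13). Its groups were parted only by the gap between dominant pituitary 3 and subordinate pituitary 3. The remaining pituitary member, sec22a, a relative of the SNARE protein Sec22, stood at 310.4, 374 and 302 reads against 497, 444 and 385 (-0.42 ± 0.14), and it was the single member with its highest value in subordinate pituitary 1.

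**Figure D2:**
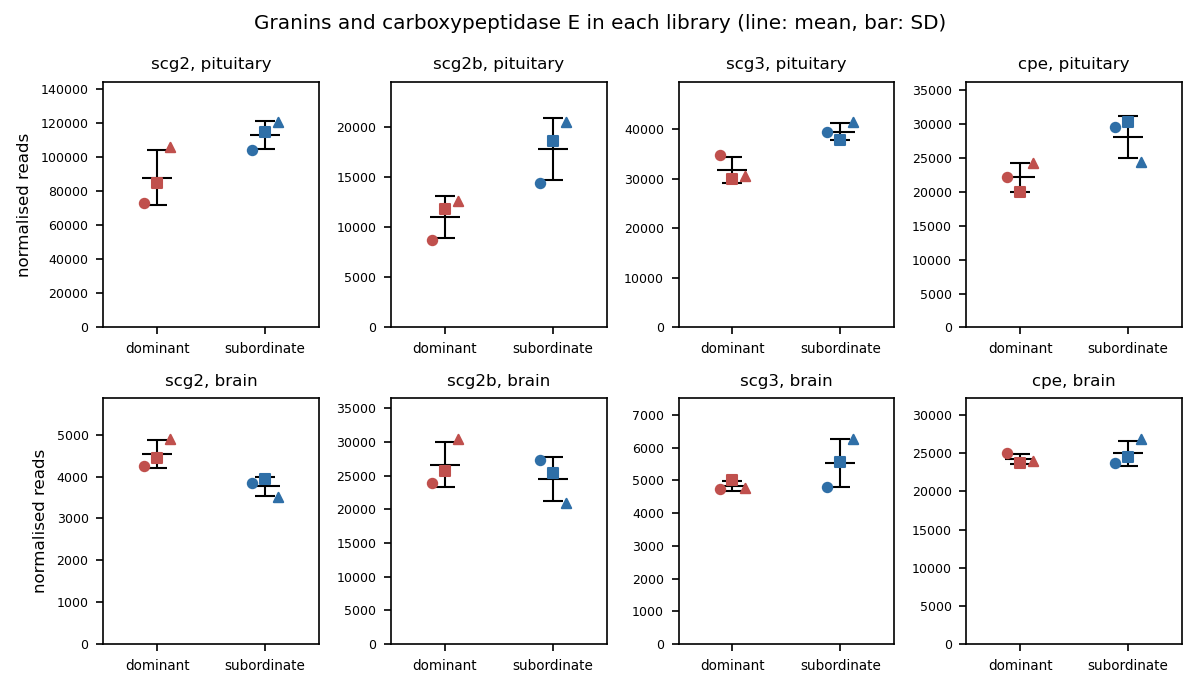
Normalised reads of scg2, scg2b, scg3 and cpe in each pituitary (upper row) and brain (lower row) library, with the mean and SD of each group and axes that start at 0. The dominant mean is the lower one in the pituitary for all 4 genes, while in the brain scg2 is higher in all 3 dominant samples and the other 3 genes overlap.

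The subordinate pituitaries were not alike. Subordinate pituitary 3 held the highest value of 18 of the 25 members (72%), subordinate pituitary 2 of 6 and subordinate pituitary 1 of 1. Subordinate pituitary 3 was also the highest library for 60.5% of the 342 rows that were lower in dominant males. In 20 of the 25, subordinate pituitary 1 was the lowest of its group, which was also so for 68.4% of the 342 rows that were lower in dominant males. Averaged over the 25 genes, the log2 value minus the mean of the 6 libraries was -0.32, -0.12 and -0.21 in dominant pituitaries 1, 2 and 3. It was 0.020, 0.25 and 0.38 in subordinate pituitaries 1, 2 and 3. The dominant and subordinate averages did not overlap, and the gap between dominant pituitary 2 and subordinate pituitary 1 was smaller than the spread within the subordinate group. Since the rows were selected for a difference between these groups, parted averages are no separate result. No scaling other than the authors' was tried in the pituitary. The 25 members made up 8.03%, 5.66% and 8.50% of all deposited pituitary reads, growth hormone included, in dominant pituitaries 1, 2 and 3. In subordinate pituitaries 1, 2 and 3 they made up 10.95%, 6.15% and 3.85%, so the libraries were ordered otherwise by this share than by the averages above. The share is of the selected rows only, and growth hormone is among them. It is therefore not another scaling of the libraries, and how the order depends on scaling was not tested.

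Hormone transcripts, whose products are cargo of this pathway, also varied across these libraries. Of the hormone genes looked for, only gh1, cga, lhb and fshb were among the selected rows. The prl, smtla, pomc and tshba genes were not, so their pituitary levels could not be seen. gh1 (LOC100534452), the growth hormone gene, stood at 1031202, 1855575 and 1323370.5 reads in the dominant pituitaries and at 1252854, 3063158 and 5513556 in the subordinate ones. Like most of the 25 members it was highest in subordinate pituitaries 3 and 2, but subordinate pituitary 1 lay within the dominant range. The gonadotropin genes were higher in dominant males, and none of them overlapped between groups. Every dominant library was also higher for 38.5% of all pituitary rows, which were selected by p for this comparison. cga, the shared alpha subunit, stood at 232898 ± 74525 reads in dominant and 133695 ± 35641 in subordinate pituitaries. lhb (LOC100534501), the luteinizing hormone subunit, stood at 264105 ± 38707 against 120880.1 ± 60166 reads, and fshb, of follicle-stimulating hormone, at 66200 ± 20456 against 22559 ± 10895. The share of growth hormone cells and of gonadotropin cells in each pituitary was not measured, and its part in the values of the 25 members was not tested. Of the brain markers, slc17a6, a neuronal glutamate transporter (476 ± 122 against 316 ± 34.0 reads), and mpz, a myelin protein (192 ± 162 against 85.6 ± 26.6), were also in the pituitary table, both higher in dominant males with overlapping groups.

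**Figure D3:**
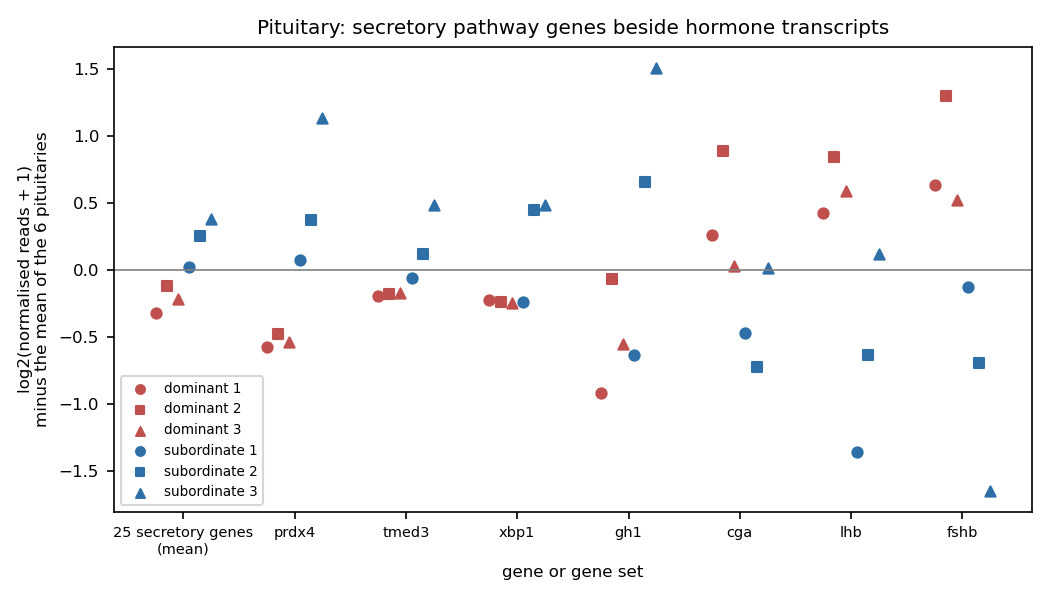
Points show the 6 pituitaries as log2(normalised reads + 1) minus their mean, for the average of the 25 secretory pathway genes, for prdx4, tmed3 and xbp1, and for the hormone genes gh1, cga, lhb and fshb. Subordinate pituitaries 2 and 3 are the highest points for the secretory genes and gh1, and dominant points are highest for cga, lhb and fshb.

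Other genes of the pathway, listed by their known roles and not by how they moved, gave 10 more rows in the pituitary table. The same gene names assigned by RefSeq to unnamed loci gave prdx4 (LOC100709606) and tmed3 (LOC100702682). prdx4, a peroxiredoxin of the endoplasmic reticulum that drives disulfide formation, stood at 891, 952 and 914 reads in the dominant pituitaries and 1397, 1712 and 2908 in the subordinate ones. Its difference of -1.05 ± 0.32 was larger than that of any of the 25 members, and its groups did not overlap. tmed3, another p24 protein, stood at 2825, 2851 and 2864 reads against 3106, 3503 and 4519 (-0.36 ± 0.16), with no overlap. Of 3 chaperone and glycan-trimming genes, mogs, the first glucosidase to trim N-linked sugars, stood at 389 ± 37.4 against 589 ± 109 reads and man1b1a (LOC100700979), a mannosidase, at 448 ± 29.1 against 582 ± 96.5. Neither mogs nor man1b1a had overlapping groups. calr3b (LOC100704618), of the calreticulin family, was higher in dominant males (7173 ± 757 against 5616 ± 771) with overlapping groups. xbp1, the transcription factor that expands the endoplasmic reticulum, stood at 5245, 5198 and 5168 reads in dominant and 5193, 8371 and 8583 in subordinate pituitaries. Subordinate pituitary 1 was thus within the narrow dominant range for xbp1, and the other two lay far above it. The related stress factor atf6b (LOC100705378) was higher in dominant males (1075 ± 104 against 822 ± 116), and so was rab3a, a GTPase of granule release (1561 ± 136 against 1189 ± 137). Neither atf6b nor rab3a had overlapping groups, beside 38.5% of the pituitary rows with every dominant library higher. The last pair, krtcap2 of the oligosaccharyltransferase (715 ± 14.6 against 1066 ± 335) and arf5, a GTPase of COPI coats (1199 ± 48.2 against 1443 ± 76.5), was lower in dominant males. The krtcap2 groups overlapped and the arf5 groups did not, beside 27.5% of the pituitary rows with every dominant library lower. The directions were thus mixed outside the 25 members, with 7 of these 10 genes lower and 3 higher.

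In the brain no member passed the test. By limma over 21743 genes, 0 of the 67 members passed at an adjusted p under 0.05 (adjusted p = 0.902 to 0.998), as did 0.0276% of all genes. At an unadjusted p under 0.05 there was 1 member, scg2, where 5.17% of all genes had such a p. That 1 was higher in dominant males, beside 3.1% of all genes higher and 2.07% lower at this p. edgeR and DESeq2 also called 0 of the 67, beside 0.0276% and 0.386% of all genes. The 67 differences ran from -0.28 to 0.27 with a median of -0.010, and 65 of them were smaller than 0.2 in size. So were 15383 of all 21743 genes tested. Of the members, 37 were lower and 30 higher in dominant brains, beside 51.2% lower over all genes. The groups did not overlap for 15 members (22.4%, against 10.8% of all genes), 9 of them lower in dominant brains (5.33% of all genes) and 6 higher (5.46%). The 9 lower ones were copa, hm13, pdia3, pdia6, sec22a, sec24b, sec24c, spcs2 and srp9, and the 6 higher ones lman1, ostc, scg2, sec61b, srp72 and tram1. Most of these gaps were narrow: hm13 stood at 2002 ± 3.87 against 2115 ± 64.9 reads and sec61b, a small subunit of the Sec61 channel, at 961 ± 12.4 against 926 ± 3.26.

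These brain measurements were comparatively precise. The median half-width of the 95% interval of a member's difference was 0.19, against 0.33 over all genes tested, at a median level of 1213 against 348 normalised reads. The sizes of the members' differences had a median of 0.056 against 0.107 over all genes. Per library, the average over the 67 members lay between -0.025 and 0.024 around its mean on the log2 scale, and the dominant and subordinate libraries overlapped.

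**Figure D4:**
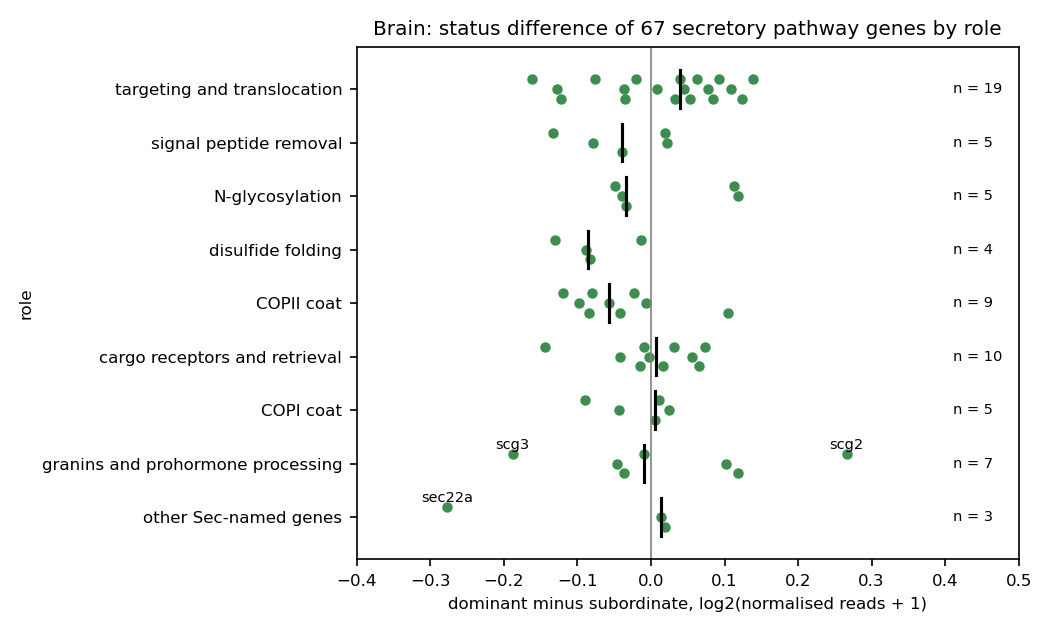
Each point is 1 of the 67 secretory pathway genes in the brain, placed by its dominant less subordinate difference in log2(normalised reads + 1), with roles as rows and a line at the median of each role. All role medians lie between -0.086 and 0.039, and scg2, scg3 and sec22a lie farthest out.

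By role, the brain medians stayed close to 0. Targeting and translocation had a median of 0.039 over 19 genes, of which 12 were higher. srp72, which encodes a large protein of the signal recognition particle, stood at 1129, 1121 and 1236 reads against 1050.0, 1039 and 1073 (0.14 ± 0.06, adjusted p = 0.934 by limma, higher in 3 of 3 dominant samples). Its receptor subunit srpra (1460.1 ± 132 against 1337 ± 50.2) and ssr2, of the TRAP complex (1636 ± 22.7 against 1521 ± 131), overlapped between groups. The channel subunits sec61a1, sec61b and sec61g differed by -0.020, 0.052 and 0.0084. Signal peptide removal had a median of -0.039, where spcs2 was lower in each dominant brain (844 ± 56.2 against 924 ± 9.55). N-glycosylation had a median of -0.034, with ostc at 527 ± 15.1 against 486 ± 31.5.

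Some protein disulfide isomerases, such as p4hb and pdia8 (LOC100707709), fell outside the name rule and belong to the lists below. The 4 that were members all lay lower in dominant brains, by -0.014 to -0.13 with a median of -0.086, beside 51.2% of all genes. The member with the smallest p among them was pdia6, at 1101, 1224 and 1173 reads in dominant and 1281, 1306 and 1240.4 in subordinate brains, with no overlap (-0.13 ± 0.07, adjusted p = 0.934 by limma). In the COPII coat 8 of 9 genes were lower, with a median of -0.058. sec24c, a cargo-binding subunit like sec24d, stood at 1401, 1361 and 1429.6 reads against 1537, 1508 and 1506, again with no overlap (-0.12 ± 0.05, adjusted p = 0.934 by limma). COPI genes had a median of 0.0050, with copa at 3251 ± 141 against 3458 ± 58.5. Cargo receptors and retrieval genes had a median of 0.0073, with ergic1 at 278 ± 27.4 against 307 ± 27.6. sec22a had the lowest difference of all members, at 362, 365 and 303 reads against 493, 383 and 378 (-0.28 ± 0.14, adjusted p = 0.934 by limma), with subordinate brain 1 set apart from the rest. Without that library its difference was -0.15 and no longer the lowest, scg3 being at -0.29. Like hm13 and srp9, sec22a was lower in every dominant than in every subordinate sample of both tissues. Such parting was found for 5.33% of all brain genes and for 57.3% of the selected pituitary rows that were lower in dominant males.

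No granin or processing enzyme passed in the brain, where 3 of these 7 members were higher and 4 lower in dominant males. scg2 stood at 4256, 4451 and 4899 reads in dominant brains 1, 2 and 3 and at 3858, 3939 and 3511 in the subordinate ones. It was higher in 3 of 3 dominant samples, by 0.27 ± 0.08 (95% interval 0.080 to 0.45), with an unadjusted p of 0.0118 and an adjusted p of 0.902 by limma over all genes. Its second locus scg2b stood at 23837, 25671 and 30443 reads against 27306, 25428 and 20950.4, with wide overlap (0.12 ± 0.13). That difference was 0.0087 without subordinate brain 3 and 0.019 without dominant brain 3. scg3 went in the other direction, at 4724, 5019 and 4766 reads in dominant and 4787, 5569 and 6268 in subordinate brains (-0.19 ± 0.10, adjusted p = 0.934 by limma). The overlap came from subordinate brain 1, and the highest value from subordinate brain 3. scg5, which encodes the chaperone of the convertase made from pcsk2, stood at 11773 ± 371 against 11003 ± 1186 reads. The convertases pcsk1 (4137 ± 491 against 4149 ± 202) and pcsk2 (6761 ± 205 against 6936 ± 355) and cpe (24232 ± 678 against 25039 ± 1639) differed by -0.010, -0.036 and -0.046.

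The third subordinate brain also stood out for pituitary transcripts. All 8 pituitary hormone genes found in the brain table were highest there, and their summed level was 29532 normalised reads against 10362 to 15002 in the other 5 brains. scg3, cpe and pcsk2 had their highest brain value in that library too, whereas scg2 and scg2b had their lowest. Without it the scg3 difference was -0.095, the scg2 difference 0.22 and the scg2b difference 0.0087. All 8 hormone genes were also lower in dominant brains, with a median difference of -0.59, beside 51.2% of all genes lower. The groups did not overlap for 3 of the 8, beside 10.8% of all genes. By limma 0 of them passed with adjustment, and 1 had an unadjusted p under 0.05, beside 5.17% of all genes. The 11 posterior hox genes, whose expression marks the spinal cord end of the nervous system, were also uneven. All 11 were higher in dominant brains, with a median difference of 2.91, beside 51.2% of all genes lower. Groups did not overlap for 8 of the 11, beside 10.8% of all genes. With adjustment limma called 0 of the 11 and DESeq2 called 3, the latter beside 0.386% of all genes. An unadjusted p under 0.05 by limma was found for 8, beside 5.17% of all genes. The summed level of the hox genes was 1058 to 1851 reads in the dominant group, while subordinate brain 1 had 806, subordinate brain 2 had 68.6 and subordinate brain 3 had 153. The part of either marker set in the members' values was not tested. Brain markers such as syt1 and gfap were present in all 6 brains, with summed levels of 290887 (subordinate brain 3) to 374952 reads (subordinate brain 1) over 17 genes.

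For the 25 genes seen in both tissues, the brain difference had a median of -0.042, with 16 lower and 9 higher in dominant males, beside -0.41 in the pituitary. The pituitary difference lay below the lower end of the brain's 95% interval for 23 of the 25, and inside it for scg3 and sec22a. That count leaves out the SE of the pituitary difference, and the selection of the pituitary rows favours it. The difference between tissues was not tested, since the pituitary rows were selected for a small p and selection favours large differences. Levels were normalised separately in each tissue, so only differences within a tissue are set side by side. The differences of scg2 were -0.38 in the pituitary, where its groups overlapped, and 0.27 in the brain. For tram1 they were -0.55 and 0.093, and for scg2b -0.70 and 0.12, the latter close to 0 without either of the libraries named above.

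**Figure D5:**
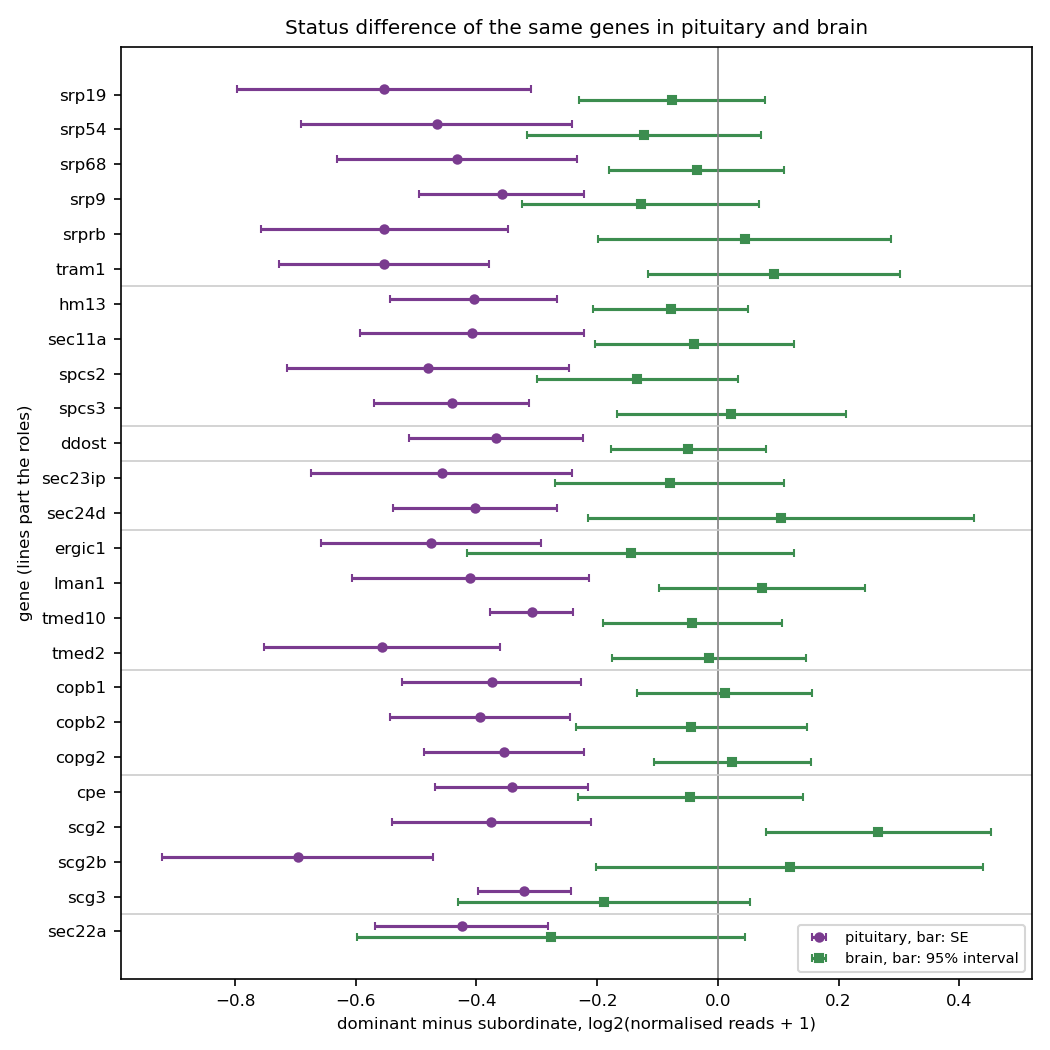
For the 25 genes found in both tables, circles give the pituitary difference, dominant minus subordinate in log2(normalised reads + 1), with its SE, and squares the brain difference with its 95% interval. Every circle lies between -0.31 and -0.70, while the squares lie between -0.28 and 0.27 and, except for scg2, their intervals include 0.

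The wider pathway in the brain was covered by 6 lists drawn up by function or by RefSeq name. No gene of these lists passed by limma, edgeR or DESeq2 with adjustment over all genes, and at an unadjusted p under 0.05 by limma there were 4 of 149 genes (2.68%), beside 5.17% of all genes. Of 33 chaperone and glycan-trimming genes 25 were lower in dominant brains, beside 51.2% of all genes, with a median of -0.054. The groups did not overlap for 6 of the 33, beside 10.8% of all genes. The smallest p among the 33 was that of sdf2l1, a partner of chaperones in the endoplasmic reticulum (739 ± 13.9 against 837 ± 45.1 reads, adjusted p = 0.934 by limma). The 37 genes for GTPases, tethers and SNAREs between endoplasmic reticulum and Golgi had a median of -0.0069, with arfgap1, which drives COPI uncoating (2195 ± 124 against 2479 ± 10.5), and trappc2, a tether subunit (323 ± 1.62 against 367 ± 9.28), as those of smallest p. Over 31 genes of dense-core granules and regulated exocytosis the median was 0.0061. There the granin chgb stood at 15839 ± 2356 against 12882 ± 445 reads, with no overlap (0.29 ± 0.11, adjusted p = 0.934 by limma), and its relative chga at 8586 ± 1305 against 9714 ± 643. The neuropeptide precursor vgf (LOC102075979) stood at 1337 ± 81.2 against 1072 ± 232, with overlap. The 23 genes of the unfolded protein response and degradation had a median of -0.010, with xbp1 at 2612 ± 254 against 2496 ± 127. The 7 other oligosaccharyltransferase genes had a median of -0.037, and the 18 loci that carry a pathway name only in RefSeq one of -0.034. prdx4, so far apart in the pituitary, stood at 625 ± 12.3 against 619.6 ± 79.6 reads in the brain.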

How the data were processed

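Messenger RNA of whole pituitaries and brains had been sequenced from TruSeq RNA v2 libraries, per the labels' protocols. The submitters' processing notes name STAR 2.201, HTSeq, DESeq2, DESeq, Trim Galore and FastQC 0.11.4, without roles. Genome build, annotation, strandedness and multi-mapped reads: not given in the sources used here. Paralogs such as scg2 and scg2b may share reads. The deposited signal values, named normalised read counts by the authors, were whole multiples of 1 step per column in 100% of cases (tolerance 0.01 reads), from which whole counts were recovered. Those were 23733115 to 26867631 reads per brain library and 1649554 to 7025630 in the 714 pituitary rows, which is not a library depth. The least covered member had 30 reads in a brain library and 295 in a pituitary library. No 2 libraries of a tissue shared equal reads in over 0.878% of genes with a mean of at least 50. A table of log2 fold changes with p-values, deposited by the authors, compares dominant with subordinate males. There were 251 blank lines left out and 0 columns of values not used.

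Members followed the name rule, and roles and lists were fixed by gene function. All were chosen with earlier results of these data known, and 18 tested brain loci with a matching name only in RefSeq were kept as a list, not as members. For LOC identifiers, names (and nothing else) came from RefSeq, assembly O_niloticus_UMD_NMBU. Named genes were all members in the pituitary table, the 6 brain members of smallest p per direction, the smallest p per role, all granins and processing enzymes, up to 2 genes per list and direction, and list genes in the pituitary table.

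The brain was tested with limma 3.58.1 (R 4.3.3), on values as log2(value + 1), eBayes with trend, two-sided, with Benjamini-Hochberg adjustment over the 21743 genes averaging 10 or more. The fit was checked on simulated data, where the changes put in were larger than any member's brain difference. Whether differences as small as the members' could be called was not checked. The added 1 makes fold changes of low genes too small. An exact permutation test of 3 against 3 cannot give a p under 0.1. Pituitary SEs are pooled over both groups of the gene itself. Brain SEs are those of limma, moderated with the spread of all genes tested, so they are another measure. For tram1 in the brain the limma SE was 0.088 and the pooled one 0.067. Alternatives were other pseudocounts, filters and scalings, a replicate block, leaving out each replicate, and edgeR 4.0.16 and DESeq2 1.42.0 on recovered counts. Figures were drawn with matplotlib 3.10.9.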

Additional observations from a re-analysis of the deposited data

Results flagged for a closer look

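tram1, which sits beside the Sec61 channel, was lower in every dominant pituitary and higher in every dominant brain. The brain values were 379, 373 and 375 reads in dominant and 368, 321 and 370.2 in subordinate samples, a difference of 0.093 ± 0.088 (SE, n = 3), against -0.55 ± 0.17 in the pituitary. The brain difference did not pass (adjusted p = 0.934 by limma), its lowest value came from subordinate brain 2, and the difference between tissues was not tested. Among 25 genes seen in both tables tram1 was the single one for which both tissues were fully parted in opposite directions. Of all brain genes 5.46% were higher in every dominant sample, and the pituitary rows were selected by p. The brain groups of tram1 were parted only by the gap between 373 and 370.2 reads.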

How the results depend on the processing

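The pituitary median of -0.41 and the brain median of -0.010 kept within the spread between replicates under other pseudocounts (0.5 and 5), low-value filters (off, or a mean of 50) and scalings (TMM and quantile, brain only). The filters left the same 25 pituitary members, so they could not move the pituitary median. With 1 pituitary library left out at a time all 25 members stayed lower in dominant males, and their median ran from -0.338 (without subordinate replicate 3) to -0.562 (without subordinate replicate 1). The brain median ran from -0.0544 (without subordinate replicate 1) to -0.000647 (without subordinate replicate 3), and quantile scaling took it to 0.000749. In the brain 0 members passed in any setting, edgeR and DESeq2 included. scg2 had an unadjusted p under 0.05 in each, and the count at that p ran from 1 to 2 with a library left out. The second gene was srpra without dominant replicate 1, spcs2 without dominant replicate 3 and scg3 without subordinate replicate 1. Among the brain members followed gene by gene, the differences of 3 processing enzymes close to 0 changed sign. Other members close to 0, such as tmed8 and cope, were not followed in this way. pcsk1 (-0.010) was 0.0196 with quantile scaling and 0.00333 with edgeR. With 1 library left out it ran from -0.0989 to 0.0706, above 0 without dominant replicate 1 or subordinate replicate 2 (0.0198). cpe ran from -0.0829 to 0.00665 and pcsk2 from -0.0630 to 0.00542, both above 0 only without subordinate replicate 3. The cause was not tested. Samples of the same number did not deviate together in the brain (correlations of deviations -0.030 to 0.092), nor consistently in the pituitary (-0.053 to 0.15). With the replicate number as a block the brain had 0 called members and 1 at an unadjusted p under 0.05 by limma. The medians stayed at -0.010 and -0.41, which was fixed in advance, since each block held 1 library per status. The selection of the pituitary rows limits every pituitary value here, and genes outside them cannot be weighed.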
